A study of Homo sapiens with 4 samples.

Results

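RNA of 46 nuclear receptor genes was measured in 4 libraries of HT1080 cells with a knockout of KDAC8, the lysine deacetylase encoded by HDAC8. The 46 genes were chosen by name, as members of the nuclear receptor superfamily, from a table of 60675 gene rows, and each name matched 1 row. HT1080 is an established human fibrosarcoma line of connective tissue origin, and the cells were grown in serum-containing medium, pelleted and frozen before total RNA was extracted and depleted of ribosomal RNA. All 4 libraries carry the same KDAC8 knockout genotype, and no other group was analysed here, so levels are described and no effect of the knockout is measured. The labels do not say how the knockout was made, whether the line is 1 clone, or whether the replicates were separate cultures, so p-values measure only the spread between these libraries, which may be technical.

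Nuclear receptors are transcription factors of which most carry a zinc finger DNA-binding domain and a pocket that binds a small fat-soluble ligand. NR0B1 and NR0B2 lack the DNA-binding domain. Steroid receptors wait on chaperones until hormone arrives, receptors for thyroid hormone, retinoids, vitamin D, fatty acids and oxysterols bind DNA together with a retinoid X receptor, and orphan receptors such as ESRRA act without a known natural hormone or repress genes constitutively. Many of them recruit corepressor complexes that contain a lysine deacetylase, chiefly HDAC3, when no agonist is bound, and coactivators that carry acetyltransferase activity when one is.

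The libraries held 39454210 to 45828807 counts. HDAC8 itself had 80, 89, 95 and 107 counts in replicates 1 to 4, or 2.18 ± 0.242 CPM, the count scaled to a common library size (mean ± SD, n = 4, as in all errors here). Counts per gene do not show an edited site, so this value is no check of the knockout at the protein level. Of 6 mesenchymal markers, 5 stood at 1 CPM or more in every library. The exception was S100A4 at 0.449 CPM. Of 17 markers of epithelial, blood, endothelial, liver and fat cells, 1 did, the epithelial gene CLDN4 at 2.49 CPM, while EPCAM, CDH1 and KRT5 had no count. In bulk RNA, fewer cells that express a gene and less RNA per cell cannot be told apart.

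Of the 46 receptor genes, 26 were detected, defined as 1 CPM or more in all 4 libraries. The same threshold was met by 21.4% of all gene rows and by 58.8% of protein-coding genes. A further 15 receptors had counts but fell under 1 CPM in at least 1 library, and 5 had no count in any library. CPM here is scaled between libraries with TMM factors. Levels of different genes were compared only as CPM per kilobase of annotated exon, because a long transcript yields more fragments than a short one at the same abundance.

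ESRRA, the oestrogen-related receptor that drives genes of mitochondrial energy metabolism together with PGC-1 coactivators, was sixth in the family by this measure. Its gene lies on the plus strand of chromosome 11, from 64305572 to 64316743 (GRCh38). It had 1932, 2429, 2441 and 2075 counts in replicates 1 to 4, or 47.8, 57.7, 53.9 and 49.1 CPM. Replicates 2 and 3 stood above replicates 1 and 4. Per kilobase its level was 17.2 ± 1.501 CPM, higher than that of 81.5% of detected genes with a known length. The spread between libraries was larger than counting noise, with an adjusted p of 5.9e-10 in a chi-square test of homogeneity adjusted by Benjamini-Hochberg over 16790 genes, and the highest library was 1.21 times the lowest. This test was passed by 59.2% of all genes tested. When each gene was instead scaled by the shift of genes of similar GC content in the same library, an alternative chosen after seeing the data, the adjusted p was 0.188 and the call was lost.

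ESRRA counts are not free of a neighbour. Its annotated exons share 284 bases with TRMT112, a gene on the opposite strand, and its counts were not whole numbers in any library. The sums of ESRRA and TRMT112 were whole in all 4, at 4715, 6528, 6073 and 4990. The fraction missing from one gene was thus held by the other, and reads of the shared bases cannot be told apart here. Of the 46 receptors, 20 share exonic bases with another annotated gene, and 14 had a count that was not whole in some library. The relatives of ESRRA were near 0. ESRRB had 8, 0, 2 and 3 counts and ESRRG had 4, 0.08, 6 and 3, so that ESRRA held 99.9 ± 0.110% of the CPM per kilobase of the 3 oestrogen-related receptors.

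The region around the RefSeq start site of ESRRA is shown with those of NR1H2, RXRB and NR1D2. The first 3 of these genes were highest in replicate 2 and NR1D2 was highest in replicate 1, and all 4 varied between libraries. The sequences are from RefSeq (GRCh38.p14), 250 bases before to 50 after the first base, read 5′ to 3′ on the gene's strand. They lie at chr11:64305274-64305573 (+ strand), chr19:50376207-50376506 (+ strand), chr6:33200804-33201103 (- strand) and chr3:23945036-23945335 (+ strand). Capitals mark matches on either strand to 6 motifs, the GC box GGGCGG, the ETS core CCGGAAG, the E-box CACGTG, the receptor half-site AGGTCA, the extended half-site TCAAGGTCA bound by oestrogen-related receptors, and the CCAAT box. Adjoining GC boxes can overlap, and the extended half-site contains the plain one.
ESRRA: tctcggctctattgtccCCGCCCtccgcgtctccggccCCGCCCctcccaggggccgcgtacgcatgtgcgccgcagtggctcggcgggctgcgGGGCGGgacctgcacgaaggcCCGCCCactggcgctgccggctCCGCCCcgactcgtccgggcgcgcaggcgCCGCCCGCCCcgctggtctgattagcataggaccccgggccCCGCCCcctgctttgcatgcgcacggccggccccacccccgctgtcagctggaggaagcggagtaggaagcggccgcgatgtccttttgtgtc
NR1H2: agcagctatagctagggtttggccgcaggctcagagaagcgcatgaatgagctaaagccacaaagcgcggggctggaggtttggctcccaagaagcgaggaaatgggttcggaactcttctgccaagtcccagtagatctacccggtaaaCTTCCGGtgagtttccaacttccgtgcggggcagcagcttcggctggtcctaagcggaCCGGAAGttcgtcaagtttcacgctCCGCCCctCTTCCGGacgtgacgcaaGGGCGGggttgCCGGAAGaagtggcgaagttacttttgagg
RXRB: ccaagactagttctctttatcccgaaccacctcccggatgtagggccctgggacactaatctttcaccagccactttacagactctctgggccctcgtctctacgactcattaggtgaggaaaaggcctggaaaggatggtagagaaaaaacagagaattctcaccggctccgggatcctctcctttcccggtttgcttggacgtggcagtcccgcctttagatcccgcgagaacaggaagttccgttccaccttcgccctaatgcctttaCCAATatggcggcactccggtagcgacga
NR1D2: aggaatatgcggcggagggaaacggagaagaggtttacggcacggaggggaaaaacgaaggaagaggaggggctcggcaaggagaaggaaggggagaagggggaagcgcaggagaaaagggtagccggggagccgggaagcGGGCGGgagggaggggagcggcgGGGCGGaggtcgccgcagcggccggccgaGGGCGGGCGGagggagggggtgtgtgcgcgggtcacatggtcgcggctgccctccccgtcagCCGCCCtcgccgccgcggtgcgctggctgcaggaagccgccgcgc

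The ESRRA window held 8 GC boxes and none of the other motifs. NR1D2 held 5 GC boxes, NR1H2 held 2 GC boxes and 4 ETS cores, and RXRB held 1 CCAAT box. Promoter windows were matched for 41 of the 46 receptors and 23 of the 26 detected ones. A GC box occurred in 14 of these 23, against 44.6% of all 27305 promoters in the table. The sets were not matched: all promoters include those of undetected genes. Their median GC content was 58.3%, against 61.7% for the detected receptors, and the part of GC content in the motif shares was not tested. The CCAAT box occurred in 8 of 23, against 35.7% of all promoters, the ETS core in 3 of 23 against 10.7%, and the E-box in 3 of 23 against 7.43%. The half-site AGGTCA occurred in 2 of 23 against 13.9%, and the extended half-site in 0 of 23 against 0.359%. A match describes letters and is no evidence of binding.

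**Figure D1:**
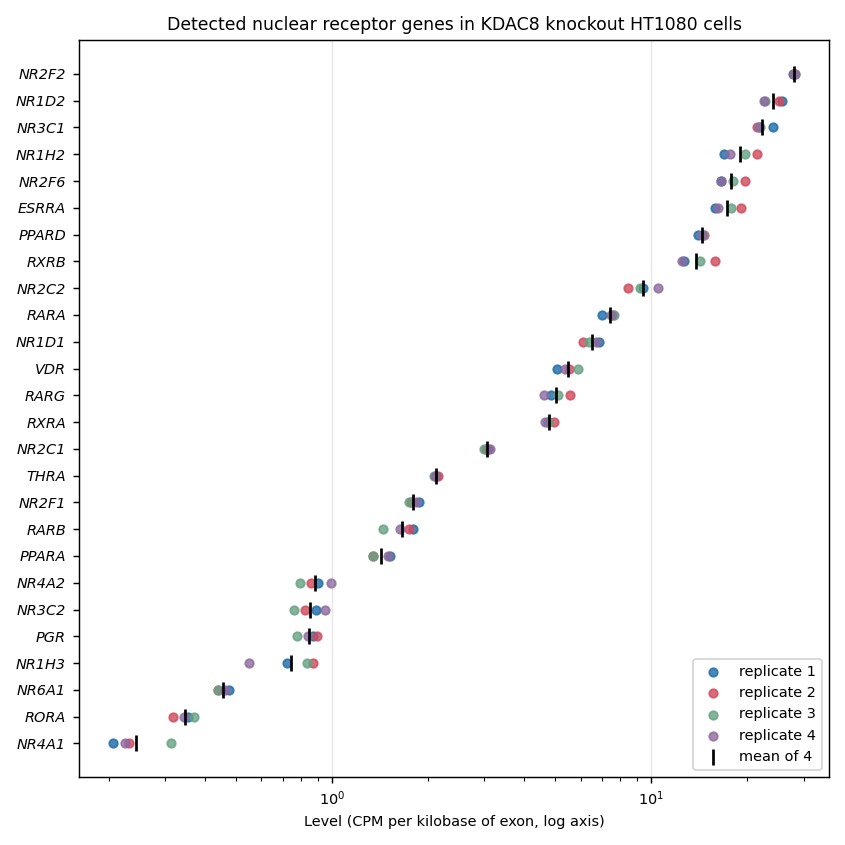
CPM per kilobase of exon (log axis) of the 26 detected receptor genes in each of the 4 KDAC8 knockout libraries, genes ordered by mean. Points are single libraries; with joined exons as the length, NR2F2 leads at a mean of 28.1 and NR4A1, the lowest detected receptor, stood at 0.243 CPM per kilobase.

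Among steroid receptors, the glucocorticoid receptor NR3C1 was the highest per kilobase. It had 220.0, 197, 201 and 199 CPM in replicates 1 to 4, and 22.2 ± 1.18 CPM per kilobase. Replicate 1 stood apart above the other three. The spread passed the chi-square test (adjusted p = 3.49e-14), but not without replicate 1, where the adjusted p was 0.501. With GC scaling it passed (adjusted p = 0.00435), at 209, 198, 206 and 201 CPM, with replicate 3 near replicate 1. The mineralocorticoid receptor NR3C2 had 5.89, 5.41, 5.01 and 6.27 CPM, and the progesterone receptor PGR had 13.4, 13.8, 11.9 and 12.9 CPM. Neither passed the test (adjusted p = 0.11 for NR3C2 and 0.123 for PGR), although NR3C2 did with total counts alone as the scale (adjusted p = 0.0231). Per kilobase NR3C1 exceeded NR3C2 by 4.71 ± 0.14 log2 units, in 4 of 4 libraries, and it held 92.9 ± 0.492% of the CPM per kilobase of these 3 genes. PGR shares 812 exonic bases with the antisense gene PGR-AS1, which had 2 to 8 counts.

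Both oestrogen receptors were under the threshold. ESR1, oestrogen receptor alpha, had 37, 19, 22 and 31 counts, higher in replicates 1 and 4. ESR2, oestrogen receptor beta, had 5.79, 7, 12 and 21 counts, highest in replicate 4. ESR1 varied with an adjusted p of 0.0427, which became 0.24, 0.104 and 0.0634 without replicates 1, 2 and 3. ESR2 varied with an adjusted p of 0.0151. Without replicate 4 its mean fell under 10 counts and it was not tested. ESR2 shares 523 exonic bases with AL161756.1 on the same strand. That gene had 20.2, 28.0, 19.0 and 33.1 counts, more than ESR2 in each library.

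The retinoid X receptors are the shared partners of the receptors for lipids, retinoids and vitamin D. RXRA had 52.6, 54.8, 52.5 and 51.4 CPM, and RXRB had 49.6, 62.2, 55.8 and 48.8 CPM. RXRA spanned 1.07 times and did not pass the test (adjusted p = 0.252), but did with GC scaling (adjusted p = 0.000802). RXRB was highest in replicate 2 and varied (adjusted p = 2.23e-18), also with GC scaling (adjusted p = 1.92e-07). RXRG had 2 counts, both in replicate 2. Per kilobase of all annotated exons RXRA was below RXRB in 4 of 4 libraries, with a log2 ratio of RXRA to RXRB of -1.53 ± 0.13. That direction depended on the length used: the joined exons of RXRA span 11083 bases and its longest protein-coding transcript 1846, and with the second length RXRA stood 0.63 log2 units above RXRB. RXRB shares 244 exonic bases with SLC39A7 on the opposite strand, and their counts summed to whole numbers in all 4 libraries.

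Among retinoic acid receptors, all 3 were detected. RARA had 33.1, 35.8, 36.1 and 35.2 CPM, RARG had 24.8, 28.6, 26.1 and 23.6 CPM and RARB had 6.60, 6.46, 5.34 and 6.03 CPM. Per kilobase they stood at 7.41 ± 0.283, 5.03 ± 0.416 and 1.65 ± 0.153, and RARA held 52.6 ± 1.80% of their sum. RARG alone of the 3 varied (adjusted p = 0.000175), with replicate 2 highest, and with GC scaling its adjusted p was 0.0753. RARA exceeded RARG in 4 of 4 libraries by 0.56 ± 0.11 log2 units.

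The thyroid hormone receptor THRA had 14.7, 14.9, 14.5 and 14.6 CPM and did not pass the test (adjusted p = 0.965). Its highest library was 1.03 times its lowest. THRB had 50, 28, 29 and 41 counts and varied (adjusted p = 0.0178), but not without replicate 1 (adjusted p = 0.222). THRA overlaps NR1D1 on the opposite strand over 263 exonic bases, and the counts of both summed to 1362, 1342, 1458 and 1404. The vitamin D receptor VDR had 28.8, 31.4, 33.5 and 30.5 CPM, highest in replicate 3. Its spread passed the test (adjusted p = 0.00305), but not without replicate 1 (0.0713), without replicate 3 (0.204) or with GC scaling (0.201). The xenobiotic receptors of its subfamily were low: NR1I2, which senses drugs in liver, had 12, 9, 6 and 3 counts, and NR1I3, its relative, had 18, 21.6, 23.7 and 28.6. NR1I3 shares 661 exonic bases with TOMM40L, which had over 500 counts in each library.

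The fatty acid receptors were led by PPARD. PPARD had 62.3, 65.2, 64.6 and 64.0 CPM, within 1.05 times of each other, and held 90.9 ± 0.656% of the subfamily's CPM per kilobase. PPARA, which drives fatty acid oxidation in liver, had 20.04, 17.7, 17.7 and 19.7 CPM. PPARG, the regulator of fat cell differentiation, had 0, 2, 3 and 1 counts, and the fat cell markers ADIPOQ, FABP4 and PLIN1 were all under the detection threshold. PPARA was lower in replicates 2 and 3 and passed the chi-square test (adjusted p = 0.0256), but not without replicate 1, 2 or 3, where the adjusted p was 0.0812, 0.0766 and 0.0544. PPARD exceeded PPARA per kilobase by 3.34 ± 0.12 log2 units in 4 of 4 libraries.

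The oxysterol receptors NR1H2 and NR1H3, which raise cholesterol efflux genes, differed widely. NR1H2 had 63.2, 80.4, 73.9 and 66.4 CPM, highest in replicate 2, and varied (adjusted p = 1.34e-21). With GC scaling the adjusted p of NR1H2 was 0.000506, and its range was 1.10 times, against 1.27 times without. NR1H3 had 3.26, 3.94, 3.78 and 2.48 CPM, lowest in replicate 4. Its highest library was 1.59 times its lowest, the widest range among detected receptors, and it varied (adjusted p = 0.00242). Without replicate 4 the adjusted p was 0.347. Per kilobase NR1H2 exceeded NR1H3 by 4.69 ± 0.22 log2 units. The bile acid receptor NR1H4 had no count, and 3 counts over the 4 libraries, the limit that a count of 0 allows, would be 0.0176 CPM.

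Among orphan receptors, NR2F2, or COUP-TFII, a receptor of mesenchyme and veins, had 179.9, 180.3, 182.3 and 182.4 CPM. These 4 values lay within 1.01 times of each other, the narrowest range of any detected receptor, and did not pass the test (adjusted p = 0.785). With total counts alone as the scale, the adjusted p was 8.42e-05. NR2F2 was the highest receptor per kilobase of joined exons at 28.1 ± 0.203 CPM, but with the longest protein-coding transcripts NR1H2 had the higher mean, with ranges that overlapped. It held 59.0 ± 1.79% of the COUP-TF group. NR2F6 had 44.4, 52.6, 48.3 and 44.4 CPM and varied (adjusted p = 4.01e-08), a call lost with GC scaling (adjusted p = 0.193). NR2F1 had 8.06, 7.60, 7.48 and 7.88 CPM and did not pass the test (adjusted p = 0.799). NR2F2 exceeded NR2F1 by 3.96 ± 0.05 and NR2F6 by 0.67 ± 0.12 log2 units per kilobase.

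The REV-ERB receptors NR1D1 and NR1D2 are haem-binding repressors of the circadian clock. NR1D2 had 149, 147, 132 and 131 CPM, with replicates 1 and 2 above replicates 3 and 4, and varied (adjusted p = 9.3e-17). NR1D1 had 18.9, 16.9, 17.7 and 18.6 CPM and did not (adjusted p = 0.174). With total counts alone the adjusted p of NR1D1 was 0.00474, and with GC scaling it was 0.00016. NR1D2 also varied with GC scaling (adjusted p = 4.08e-07), but was then highest in replicate 2, at 148 CPM against 140 in replicate 1. NR1D2 exceeded NR1D1 by 1.88 ± 0.13 log2 units per kilobase. RORA, which activates the elements that REV-ERBs repress, had 6.04, 5.41, 6.29 and 5.84 CPM, and RORB had 24, 26, 12 and 17 counts.

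The testicular receptors NR2C1 and NR2C2 were both present. NR2C2 had 111, 100.2, 109 and 124 CPM, highest in replicate 4 and lowest in replicate 2, and varied (adjusted p = 1.68e-22). NR2C1 had 20.03, 19.8, 19.5 and 20.3 CPM and did not pass the test (adjusted p = 0.869). NR2C2 shares 1197 exonic bases with MRPS25 on the opposite strand, and their counts summed to whole numbers in all 4 libraries. The NR4A receptors are immediate early genes without a classical ligand pocket. NR4A1 had 1.499, 1.69, 2.28 and 1.64 CPM, and NR4A2 had 3.59, 3.40, 3.13 and 3.93 CPM. NR4A3 had 39, 31, 48 and 34 counts. NR4A1 was highest in replicate 3, with an adjusted p of 0.0588, which became 0.0909, 0.0322, 0.867 and 0.0482 without replicates 1, 2, 3 and 4. NR4A1 was below NR4A2 in 4 of 4 libraries per kilobase, with a log2 ratio of NR4A1 to NR4A2 of -1.88 ± 0.38. NR6A1, the germ cell nuclear factor, had 3.39, 3.13, 3.13 and 3.30 CPM.

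The remaining receptors were at or near 0. HNF4G, of the hepatocyte nuclear factor group, had 10, 13, 3 and 10 counts, and NR2E3, a photoreceptor gene, had 7, 4, 5 and 2. NR5A2 and NR0B2 had 1 count each, both in replicate 1. HNF4A, NR5A1, NR0B1 and NR2E1, known from liver, steroid-making glands and neural stem cells, had no count in any library, as did NR1H4. The liver markers ALB, APOA1 and TTR were also under the detection threshold.

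Across subfamilies with more than 1 member and a detected gene, 1 paralogue usually held most of the RNA. In subfamilies of 2 genes, such as the REV-ERB and thyroid hormone receptors, the leading gene does so by definition. The leading gene's share of CPM per kilobase was 99.9 ± 0.110% for ESRRA, 96.5 ± 0.374% for VDR, 96.4 ± 1.124% for THRA and 96.2 ± 0.514% for NR1H2. It was lower for NR4A2 at 69.7 ± 5.11%, NR2F2 at 59.0 ± 1.79% and RARA at 52.6 ± 1.80%. RXRB held 74.2 ± 1.69% of the retinoid X receptors with joined exons but 39.3% with the longest protein-coding transcripts, so which of RXRA and RXRB led was not settled. In 12 paralogue pairs the within-library log2 ratio kept its sign in all 4 libraries. The exact two-sided sign-flip permutation test gave p = 0.13 (1 in 8) for each pair, adjusted or not, which is the smallest value that 4 libraries allow and cannot pass 0.05.

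**Figure D2:**
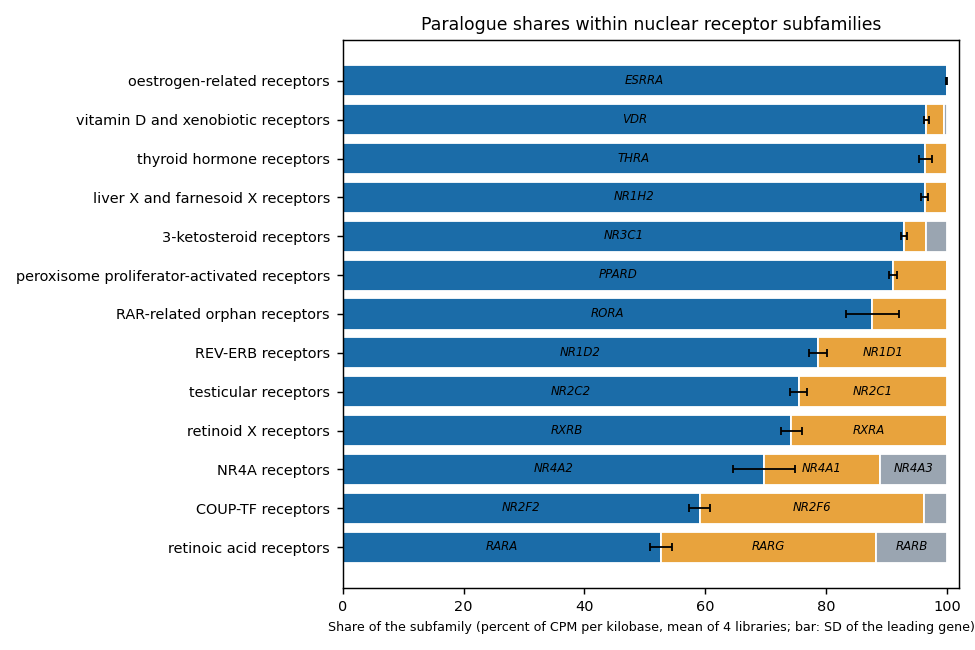
Share of each subfamily's summed CPM per kilobase taken by each paralogue (percent, mean over 4 KDAC8 knockout libraries, with SD bars). ESRRA fills nearly all of its group at 99.9%, while RARA takes 52.6% of the retinoic acid receptors.

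In the order of levels per kilobase of joined exons, neighbours often lay close. Of 25 neighbouring pairs among the 26 detected receptors, 12 had overlapping ranges over libraries. Of these 12, 6 kept 1 order within all 4 libraries, such as NR2F6 over ESRRA by 0.04 ± 0.02 log2 units. With this length the range of NR2F2 lay above that of the next gene, NR1D2. With the longest protein-coding transcript as the length, an alternative added after seeing the data, NR1H2 stood at 35.5 ± 3.88, NR2F2 at 34.4 ± 0.249 and RXRA at 28.6 ± 0.760 CPM per kilobase, the ranges of NR1H2 and NR2F2 overlapped, and ESRRA was sixth with either length. From NR1D2 through NR3C1, NR1H2 and NR2F6 to ESRRA, each gene overlapped the next. PPARD overlapped RXRB, and VDR, RARG and RXRA formed another such run. Lower down, NR2F1, RARB and PPARA overlapped in turn, as did NR4A2, NR3C2, PGR and NR1H3. With joined exons the 4 highest receptors held 44.4 ± 0.806% of the family's summed CPM per kilobase. The median detected receptor stood at 4.90 CPM per kilobase, against 5.56 for all detected genes.

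Variation between libraries was tested for the 32 receptors with a mean of 10 or more counts. It passed the threshold for 14 of them, against 59.2% of all genes tested. They were NR1D2, NR3C1, NR1H2, NR2F6, ESRRA, RXRB, NR2C2, VDR, RARG, PPARA and NR1H3 among the detected receptors, and THRB, ESR1 and ESR2 below them. The power of this test grows with the count. At 50 CPM or more, 6 of 9 receptors varied, against 90.7% of all genes, and at 10 to 50 CPM 4 of 9 did, against 66.8%. At 1 to 10 CPM 1 of 8 varied, against 40.8%, and under 1 CPM 3 of 6 did, against 28.9%. A range of 1.5 times or more as well was met by 4 receptors, NR1H3, THRB, ESR1 and ESR2, against 12.0% of all genes. The last 3 were not detected and had 5.79 to 50 counts per library. At such counts, counting noise alone is 16.9% to 33.4% of the level. The SD of log2 CPM had a median of 0.117 over the tested receptors and 0.129 over all genes tested. Without replicate 1, 9 receptors varied, against 49.3% of all genes, and ESR1, NR3C1, PPARA, THRB and VDR were no longer among them.

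**Figure D3:**
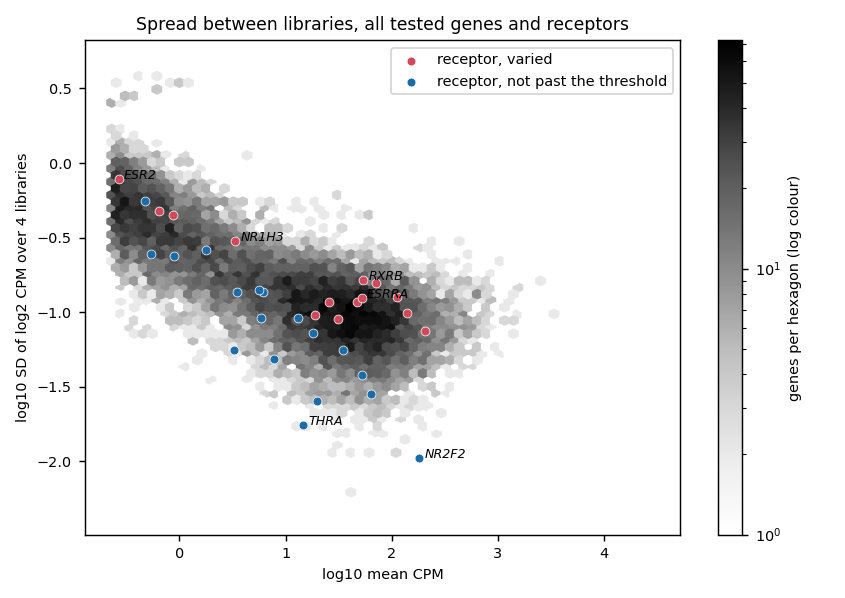
SD of log2 CPM over the 4 KDAC8 knockout libraries against mean CPM (both on log10 scales) for all tested genes (hexagons) and the tested receptors (points, coloured by whether they varied). The receptors lie within the cloud of all genes, with NR2F2 and THRA at its lower edge.

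The libraries differed in how levels moved with transcript GC content, and the receptors showed the same signs. Across 12895 detected genes, Spearman's rho between GC content and a library's log2 deviation from the gene's mean was -0.64, 0.28, 0.51 and -0.07 in replicates 1 to 4. Over the 26 detected receptors it was -0.65, 0.45, 0.45 and -0.32. These are descriptions across genes that share their libraries, and genes are not independent replicates. The 6 varying detected receptors that were highest in replicate 2, ESRRA, NR1H2, NR1H3, NR2F6, RARG and RXRB, had 55.4% to 71.1% GC. The 3 that were highest in replicate 1, NR1D2, NR3C1 and PPARA, had 38.5% to 47.6% GC. These ranges cover called receptors only, and the 15 detected receptors that were not called had 35.8% to 63.2% GC. The part of GC content in these calls was measured only by the alternative scaling, under which 11 receptors varied, against 50.5% of 16598 genes. Of these, 9 were among the 14 named above, while ESRRA, NR2F6, RARG and VDR no longer passed, and NR1D1 and RXRA were gained. ESR1 also missed the threshold (adjusted p = 0.0515, against 0.0427 before), but its range over libraries was nearly as before, 1.99 times with GC scaling and 2.03 times without.

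**Figure D4:**
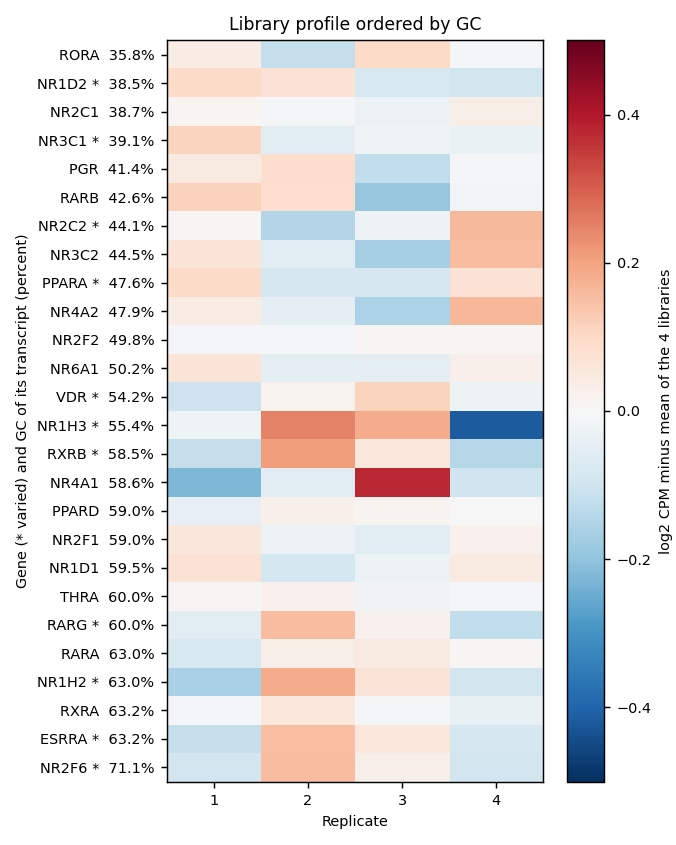
Log2 deviation of each detected receptor from its own mean in each of the 4 KDAC8 knockout libraries (colour), genes ordered by transcript GC content. Of the 13 receptors with lower GC, 11 were above their own mean in replicate 1 and 4 in replicate 2; of the 13 with higher GC, 3 were in replicate 1 and 10 in replicate 2.

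Genes that work with the receptors were described from 15 lists of 164 genes, of which 115 were detected, against 58.8% of protein-coding genes. Of 126 tested, 84 varied, and these genes are read beside all genes of the same level. At 50 CPM or more 51 of 57 varied, against 90.7% of all genes, and at 10 to 50 CPM 23 of 37 did, against 66.8%. At 1 to 10 CPM 6 of 22 varied, against 40.8%, and under 1 CPM 4 of 10 did, against 28.9%. The counts by list below are to be read in the same way, since several lists hold mostly high genes. Coactivators were nearly complete, with 14 of 15 detected and 13 of 15 varying. Of those at 50 CPM or more 7 of 7 varied, against 90.7% of all genes. At 10 to 50 CPM 5 of 7 did, against 66.8%. PNRC2, CARM1 and PPRC1 led them at 34.3 ± 1.48, 21.9 ± 1.17 and 16.9 ± 0.547 CPM per kilobase. Of the PGC-1 coactivators of ESRRA, PPARGC1B had 28.3, 23.5, 27.5 and 28.6 CPM, while PPARGC1A had 0.717, 1.38, 0.751 and 1.09 CPM and missed the threshold in replicates 1 and 3. PPARGC1A was the most variable coactivator (adjusted p = 0.0117). All 12 corepressor genes were detected and 11 varied, of which 9 were among the 10 genes at 50 CPM or more, near the 90.7% of all genes at that level. TRIM28 and TBL1XR1 led them at 158 ± 9.65 and 31.1 ± 2.25 CPM per kilobase. HDAC3, the deacetylase that works in corepressor complexes, had 38.5, 40.9, 34.8 and 35.8 CPM and varied (adjusted p = 3.28e-05).

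Of the 11 chaperone genes that hold steroid receptors ready for hormone, all were detected and 9 varied. Chaperones at 50 CPM or more varied in 8 of 8 cases, against 90.7% of all genes at that level. At 10 to 50 CPM 1 of 3 did, against 66.8%. HSPA8, HSP90AB1 and HSP90AA1 led at 524 ± 15.6, 509 ± 8.34 and 245 ± 8.44 CPM per kilobase, and BAG1 was the most variable at 33.3, 35.4, 30.6 and 28.6 CPM. Steroid handling genes were detected in 10 of 14 cases, and 4 of 10 tested varied. By level, 1 of 2 varied at 50 CPM or more, against 90.7% of all genes. At 10 to 50 CPM 1 of 4 did, against 66.8%, and at 1 to 10 CPM 2 of 4, against 40.8%. HSD17B12, HSD11B1 and HSD17B4 led at 11.3 ± 0.413, 9.79 ± 0.332 and 5.65 ± 0.140 CPM per kilobase. HSD11B1, which regenerates active cortisol, had 15.3, 14.3, 15.2 and 14.5 CPM, while HSD11B2, which inactivates it, was under the threshold in every library. AKR1C1 was the most variable of this list, with a range of 1.86 times, but its near-identical paralogues AKR1C2 and AKR1C3 make the split of reads uncertain.

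Of 10 glucocorticoid receptor targets, 8 were detected and 5 of 8 tested varied. Those at 50 CPM or more varied in 3 of 4 cases, against 90.7% of all genes. At 10 to 50 CPM 2 of 4 did, against 66.8%. MT2A, ERRFI1 and DUSP1 led at 385 ± 33.6, 68.2 ± 2.82 and 13.1 ± 1.94 CPM per kilobase, and DUSP1, a phosphatase that ends MAP kinase signals, was also the most variable, at 23.6, 31.5, 27.7 and 23.1 CPM. FKBP5, the chaperone that glucocorticoid induces, had 23.6, 22.2, 23.8 and 22.9 CPM and did not pass the test (adjusted p = 0.489). CRISPLD2 and ZBTB16 were under the threshold.

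Of 15 ESRRA targets, ESRRA itself included, 13 were detected and 12 of 14 tested varied. At 50 CPM or more 11 of 12 did, near the 90.7% of all genes at that level. ATP5F1B, COX5B and CS, of ATP synthase, the respiratory chain and the citric acid cycle, led at 312 ± 23.3, 52.3 ± 6.14 and 32.5 ± 0.592 CPM per kilobase. COX5B had 68.5, 87.1, 77.2 and 68.5 CPM, highest in replicate 2, whereas TFAM was highest in replicate 1. ESRRA was also highest in replicate 2, but its call was lost with GC scaling, and whether targets followed it was not tested. PERM1 was under the threshold and the most variable by SD, though it did not pass the test (adjusted p = 0.544), and PDK4 had no count.

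Of 11 oxysterol receptor targets, NR1H3 among them, 7 were detected and 6 of 7 tested varied. By level, 1 of 1 varied at 50 CPM or more, against 90.7% of all genes. At 10 to 50 CPM 2 of 2 did, against 66.8%, and at 1 to 10 CPM 3 of 4, against 40.8%. SCD, SREBF1 and MYLIP led at 50.003 ± 7.10, 6.15 ± 0.634 and 2.61 ± 0.202 CPM per kilobase. SCD, a fatty acid desaturase, had 279, 220.0, 262 and 311 CPM and was lowest in replicate 2. SMPDL3A was the most variable at 5.17, 3.16, 4.75 and 4.54 CPM, also lowest in replicate 2. The sterol transporter ABCA1 had 22.2, 17.6, 22.03 and 23.4 CPM, while ABCG1 and ABCG5 were under the threshold and ABCG8 had no count. Of 12 PPAR targets, 5 were detected and 3 of 6 tested varied. By level, 2 of 2 varied at 50 CPM or more, against 90.7% of all genes. At 10 to 50 CPM 1 of 3 did, against 66.8%, and under 1 CPM 0 of 1, against 28.9%. HADHA and ACADVL led at 32.7 ± 1.54 and 30.4 ± 3.52 CPM per kilobase, both enzymes of fatty acid oxidation, while PLIN2, ANGPTL4 and CD36 were under the threshold and PDK4 had no count. FABP4 was the most variable of this list by SD and did not pass the test (adjusted p = 0.378).

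Of 10 retinoic acid targets, 4 were detected and 3 of 8 tested varied. By level, 1 of 1 varied at 50 CPM or more, against 90.7% of all genes. At 1 to 10 CPM 0 of 3 did, against 40.8%, and under 1 CPM 2 of 4, against 28.9%. TGM2, a transglutaminase, led at 74.3 ± 2.63 CPM per kilobase, followed by RARB and DHRS3, while CYP26A1, which degrades retinoic acid, had no count. Retinoid handling genes were detected in 6 of 17 cases and 5 of 8 tested varied. Those at 50 CPM or more varied in 1 of 1 cases, against 90.7% of all genes, and at 10 to 50 CPM in 3 of 3, against 66.8%. At 1 to 10 CPM 0 of 2 varied, against 40.8%, and under 1 CPM 1 of 2, against 28.9%. RDH11, RETSAT and ALDH1A3 led at 11.5 ± 0.856, 7.62 ± 0.520 and 3.18 ± 0.279 CPM per kilobase. STRA6, the retinol transporter, was the most variable of both lists at 0.173, 0.380, 0.552 and 0.237 CPM, under the threshold throughout.

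The vitamin D and thyroid hormone lists were sparse, with few genes tested at any level, where 28.9% to 90.7% of all genes varied. Of 8 VDR targets, 2 were detected, CDKN1A at 24.8 ± 1.22 CPM per kilobase and VDR itself, which was the more variable, and both varied. CYP24A1, which degrades vitamin D, was under the threshold. Of 7 vitamin D handling genes, CYP2R1 and CUBN were detected, and CYP27B1, which activates the vitamin, was the most variable at 0.198, 0.309, 0.353 and 0.733 CPM (adjusted p = 0.00175), the single one of 3 tested that varied. Of 7 thyroid hormone handling genes, 2 were detected, led by the transporter SLC7A5 at 175 ± 9.53 CPM per kilobase. Of 4 tested, 1 varied, SLC7A5, and the deiodinase DIO2 was the most variable by SD at 0.371, 0.309, 0.155 and 0.331 CPM without passing the test (adjusted p = 0.313).

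Of 18 circadian clock partners, 17 were detected and 9 of 18 tested varied. Those at 50 CPM or more varied in 4 of 6 cases, against 90.7% of all genes, and at 10 to 50 CPM in 4 of 6, against 66.8%. At 1 to 10 CPM 1 of 5 varied, against 40.8%, and under 1 CPM 0 of 1, against 28.9%. CSNK1E, NPAS2 and BHLHE40 led at 26.2 ± 2.06, 14.6 ± 0.181 and 13.1 ± 0.289 CPM per kilobase. NPAS2 and CLOCK, alternative partners of ARNTL in the activating arm of the clock, had 185, 181, 181 and 184 CPM and 79.99, 71.5, 68.2 and 74.4 CPM, and ARNTL, a gene that REV-ERBs repress, had 10.2, 9.71, 8.01 and 9.08 CPM. Per kilobase NPAS2 stood at 14.6, CLOCK at 6.25 and ARNTL at 1.37 CPM. HLF was the most variable by SD and the single undetected gene of the list (adjusted p = 0.516). Among 6 genes of the AHR pathway, a ligand sensor outside the nuclear receptor family, 5 were detected and 2 of 5 tested varied. By level, 1 of 1 varied at 50 CPM or more, against 90.7% of all genes. At 10 to 50 CPM 1 of 3 did, against 66.8%, and at 1 to 10 CPM 0 of 1, against 40.8%. AHR, ARNT2 and ARNT led at 8.46 ± 0.553, 4.81 ± 0.113 and 3.83 ± 0.388 CPM per kilobase. Its target CYP1A1 was the most variable by SD at 1.16, 1.47, 1.35 and 1.58 CPM (adjusted p = 0.469).

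**Figure D5:**
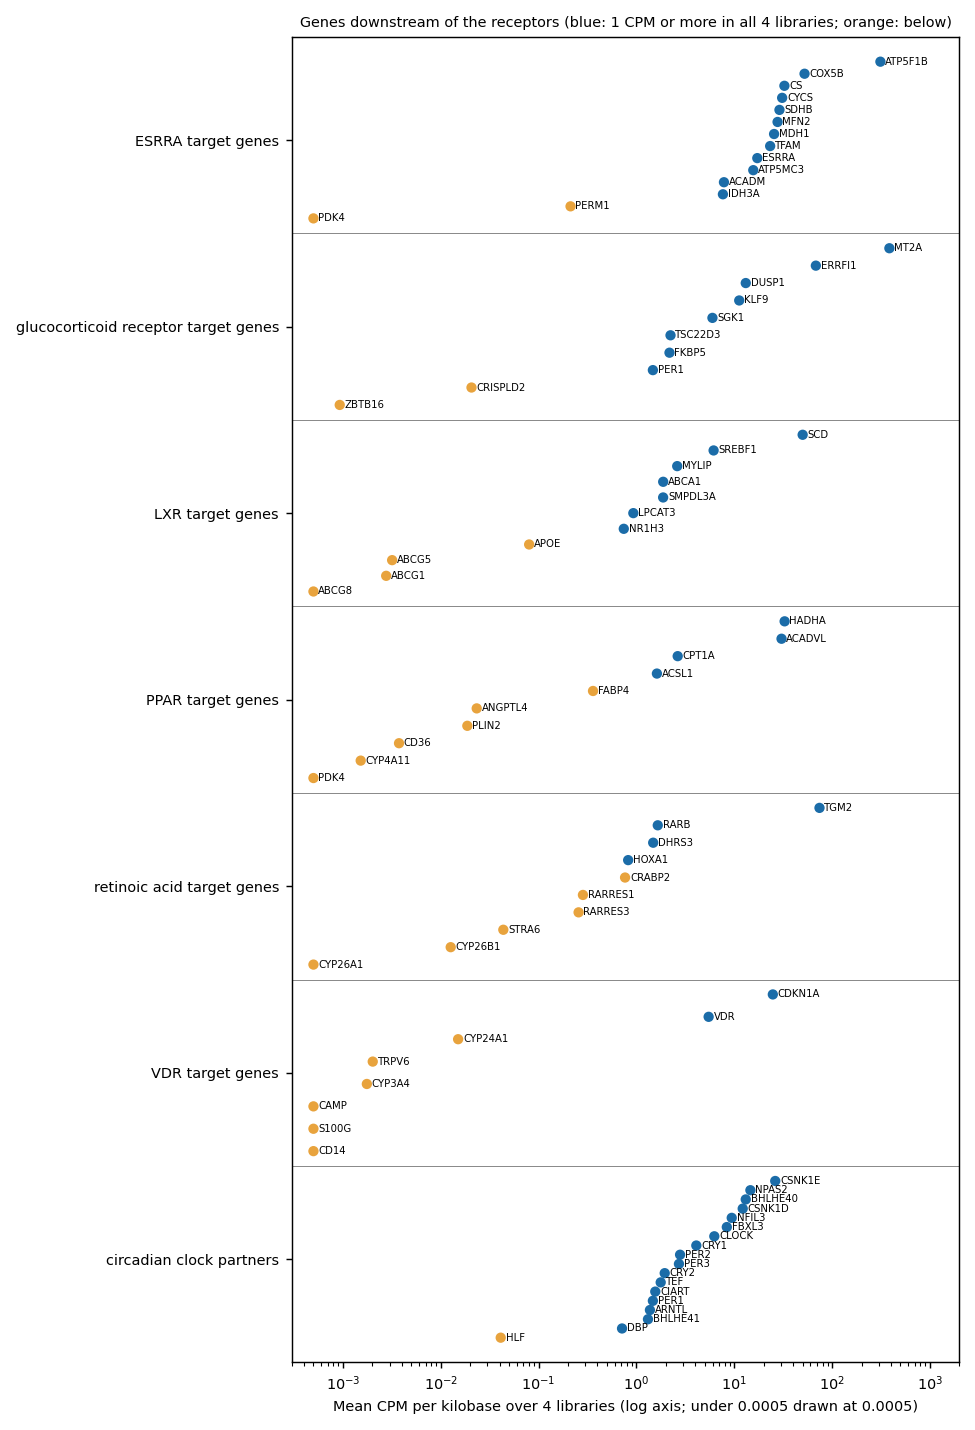
Mean CPM per kilobase of exon over 4 KDAC8 knockout libraries (log axis) of receptor target genes and clock partners, by list, blue where 1 CPM or more was reached in all 4 libraries and orange where not. ATP5F1B leads the ESRRA list at 312 CPM per kilobase, and in the VDR list 2 of 8 genes are blue; a few list genes are not drawn.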

How the data were processed

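The deposited file holds the authors' expected counts by gene, 1 column for each library, and its values were not whole in 10.6% to 11.9% of rows per library (tolerance 0.005). Bowtie2 2.5.4, Trimmomatic 0.39, DESeq2 1.46.0 and RSEM 1.3.3 are named with the GRCh38 build, per the submitters' processing notes. Which annotation release and strand setting were used is not stated there. Per the labels' protocols, Ribo-Zero Plus libraries were read in pairs.

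The members and lists were chosen with earlier results of these data known. CPM values used edgeR 4.0.16 TMM factors of 1.02, 0.963, 0.988 and 1.03. Exonic lengths, positions and overlaps came from GENCODE 29, which gave a length for 57055 rows; the deposited release may differ. Expected counts were rounded for the homogeneity test (chi-square, 3 df, genes averaging 10 or more counts, Benjamini-Hochberg threshold 0.05). Ratios used no pseudocount. Counts were simulated with counting noise only and with 1 library changed. The test then found 58% of genes changed by 1.2 times and 86% of those changed by 1.5 times. It found 92% of those changed by 2 times and 100% by 4 times, while 9 of 16588 unchanged genes were called. Unchanged genes met the test's null by design, so the simulation does not show how often real libraries pass it for technical reasons. A count of 0 in 1 library allows up to 0.0662 to 0.0742 CPM (3 counts), for counting error only, since amplified reads are not independent molecules. ATP5F1B and ATP5MC3 were matched under older names. All detected receptors were named with each library's value, and in each list the 3 highest detected genes per kilobase and the most variable tested gene were named; other detected genes could be named. Some genes that this rule names are not reported here, though the counts by list include them. List genes named below the threshold otherwise were chosen after their values were seen. Alternatives covered the scaling, the filters, the detection threshold, the gene length and each replicate left out. Python 3.11.15, scipy 1.17.1 and pandas 2.3.3 were used, with R 4.3.3 and, for size factors, DESeq2 1.42.0.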

Additional observations from a re-analysis of the deposited data

Results flagged for a closer look

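Of 44 values examined for a library far from the other 3, 2 had one, and chance gives about 5% per value. The log2 ratio of NR1H2 to NR1H3 per kilobase was 5.01 in replicate 4, against 4.55, 4.62 and 4.56 in replicates 1 to 3. NR1H3 had 105 counts in that library and 132, 166 and 171 in the others. The log2 ratio of ESRRA to ESRRG was 16.74 in replicate 2, against 10.76, 10.52 and 11.28 in replicates 1, 3 and 4. ESRRG had 0.08 expected counts in replicate 2 and 3 to 6 in the others, all near the floor of 3 counts, so this ratio has no firm size.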

How the results depend on the processing

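No paired analysis was possible because the labels give 1 group. The number of detected receptors was 26 under every scaling and with each replicate left out, 28 at 0.5 CPM, 25 at 2 CPM and 19 at 1 CPM per kilobase. The number of varying receptors is given here beside the share of all genes tested that varied. It was 9 to 13 when each replicate was left out in turn, against 46.8% to 55.9%. With DESeq2 size factors it was 14, against 59.4%, and with unrounded counts 14, against 59.2%. Total counts alone gave 17 (gaining NR1D1, NR2F2 and NR3C2), against 60.2%. Without a count filter 14 of 41 varied (losing ESR1 and gaining ESRRB), against 34.8%. A minimum mean of 50 counts gave 11 of 26, against 68.5%. A range of 1.5 times or more as well gave 4, against 12.0%. GC scaling, which was chosen after seeing the data, gave 11, against 50.5%. With the length of the longest protein-coding transcript, the shares were 93.6% for NR3C1, 61.3% for NR2F2, 60.5% for NR4A2, 80.3% for NR1D2, 89.9% for PPARD, 39.3% for RXRB, 74.0% for NR2C2 and 94.1% for VDR. The log2 ratio of RXRA to RXRB turned to 0.63 with that length, a change made by the length alone, and was -0.03 with no division by length. Depth limits the 15 receptors with few counts, of which 9 averaged under 10 counts and were not tested.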
